A study of Mus musculus with 43 samples.

Results

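Whole lungs of mice that received house dust mite extract through the nose for 19 weeks were compared with lungs of mice that received saline. These are 12 of the 43 RNA-seq libraries of the study, 7 at 19 weeks of house dust mite (HDM) and 5 of saline, chosen by their labelled exposure and by having no antibody treatment. The mice were female, of 8 to 12 weeks of age per the design text, and of a hybrid 129S6/C57BL/6 background. HDM was given intranasally 3 times a week. The length of the saline course is not given in the sources used here. The study also tested itepekimab, an antibody against IL-33, and dupilumab, an antibody against IL-4Rα, in mice whose own Il4, Il33 and Il4ra ectodomain sequences had been replaced by the human ones, and the labels do not say whether the mice without antibody carried the same alleles. The design text lists 4, 15 and 19 weeks of HDM and the sample labels 11 and 19 weeks. The labels number the libraries without saying that each came from a separate mouse. The p-values of the gene tests therefore measure spread between libraries, pooled over the groups of all 43 that were fitted together. Reads from whole lung cannot separate fewer cells of a type from less RNA per cell, and this holds for each gene below.

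House dust mite extract carries proteases and other allergens that act on airway epithelium. Injured epithelium releases the alarmins IL-33 and TSLP, which act on innate lymphoid cells and T helper 2 cells, and these secrete IL-4, IL-5 and IL-13. IL-4 and IL-13 signal through IL-4Rα and STAT6 and are known for turning airway secretory cells into mucus-filled goblet cells, for inducing chitinase-like proteins and arginase in macrophages, and for recruiting eosinophils. With months of exposure the airway wall is known to remodel, with deposition of collagen and other matrix.

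Levels are given as CPM, each gene's counts scaled to a common library size with the trimmed mean of M-values so that libraries can be compared. A gene is said to have risen or fallen when its adjusted p was under 0.05 in edgeR's quasi-likelihood test with Benjamini-Hochberg adjustment over 15979 genes, fitted on all 43 libraries. Every adjusted p below is from that test, or from the same test with the GC term or the libraries named beside it. Every log2 difference or log2 fold change is of 19 weeks of HDM minus saline, written as the value ± its standard error, and means carry the SD over 5 saline and 7 HDM libraries. The lung markers were present in all 12 libraries. Sftpc, the surfactant protein of alveolar type 2 cells, ran from 6739.7 to 11800.0 CPM in saline and from 9158 to 17030.0 CPM (median 13129) at 19 weeks. Ager, an alveolar type 1 marker, ran from 1049 to 1274 CPM and 589 to 1952 CPM (median 816), and Nkx2-1, the transcription factor of lung epithelium, from 44 to 86.4 CPM and 98.7 to 146 CPM (median 132). Scgb1a1, the club cell secretoglobin, is described with the airway epithelium.

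A pair of libraries stood apart in markers of other tissues. Saline replicate 3 held Krt4 and Krt13, keratins of stratified squamous epithelium, at 5501 and 5305 CPM, and skeletal muscle actin Acta1 at 657 CPM. The library labelled 19 weeks replicate 1 held them at 1874, 1685 and 893 CPM. In the other 4 saline libraries Krt4 was at most 0.33 CPM and Acta1 at most 0.275 CPM. The summed CPM of the list of basal and squamous genes was 13530 and 4165 in these 2 libraries, 7.99 to 12.5 in the other saline libraries and 10.1 to 24.5 in the other HDM libraries. Saline replicate 3 also had the highest adipose sum, 2312 CPM against 120 to 190.4 in the other 4. Only some of the list counts that change without these libraries are given with the lists below. Among those not given there, goblet cell genes that rose went from 17 to 15 without both libraries. Risen genes of the unfolded protein response went from 15 to 12, and those of transitional alveolar epithelium from 7 to 9. Interferon response genes that fell went from 21 to 19, and capillary genes from 11 to 9. Without both of them, 2674 genes rose and 1923 fell.

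Libraries also differed by the GC content of the transcripts they favoured. The GC slope of a library is the change in its log2 CPM, relative to the mean of all 43 libraries, for each 10 percentage points of transcript GC. It was -0.632 ± 0.18 (SD, n = 5) in saline and 0.172 ± 0.553 (SD, n = 7) at 19 weeks, a difference of 0.804 (exact permutation test over 792 splits, 2-sided p = 0.0126, where the smallest possible p is 0.00253). Saline libraries ran from -0.861 to -0.36 and HDM libraries from -0.406 to 0.874, so the groups overlapped in 1 pair, saline replicate 3 and HDM replicate 6. The steepest HDM libraries were replicate 2 at 0.874, replicate 7 at 0.782 and replicate 1 at 0.593. These also stood apart from the other HDM libraries in chi-square per gene, a measure of distance between libraries. It was 52.3 to 96.1 among replicates 1, 2 and 7 and 18.5 to 80.6 among replicates 5, 6, 8 and 9. Between these sets it was 173.1 to 270.5. Depth ran from 14043243 to 23280805 counts in saline and from 11932579 to 26749395 at 19 weeks.

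The calls followed transcript GC. Without a GC term, 3072 genes rose and 2490 fell of 15979 tested, which is 19.2% and 15.6%. Among the 20% of genes with the lowest GC, 5.59% rose and 30.3% fell, and among the 20% with the highest GC, 36.4% rose and 2.94% fell. With offsets that take out each library's dependence on GC and transcript length, 2707 genes rose and 2959 fell, and the share that rose was between 15.2% and 19.3% in each of 5 GC classes of equal size. With the GC slope as a covariate, 3081 rose and 2673 fell. A further fit left out the 10 steepest of the 43 libraries, among them HDM replicates 2 and 7 but not replicate 1. It called 3768 higher and 3801 lower, and there the shares higher still ran from 8.66% in the lowest GC class to 42.7% in the highest. No gene called in the fit without a GC term was called in the opposite direction by any of the other 3. The 4 fits shared 1608 genes that rose (10.1%) and 1269 that fell (7.94%), and 1336 and 1087 of these differed at least 2-fold. Counts for gene lists are given below for the fit without a GC term and, as "in all 4 fits", for calls that all 4 share. Each is to be read beside the shares over all genes tested. Those are 19.2% higher and 15.6% lower without a GC term, and 10.1% and 7.94% in all 4 fits. A list near these shares does not differ from the genes tested. The shares in all 4 fits still varied with GC. In the lowest GC class 5.12% rose and 12.4% fell in all 4 fits, and in the highest 11.2% rose and 2.5% fell. The shares over all genes tested therefore make no allowance for the GC of a list's members. Whether the slopes are technical or biological was not tested.

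**Figure D1:**
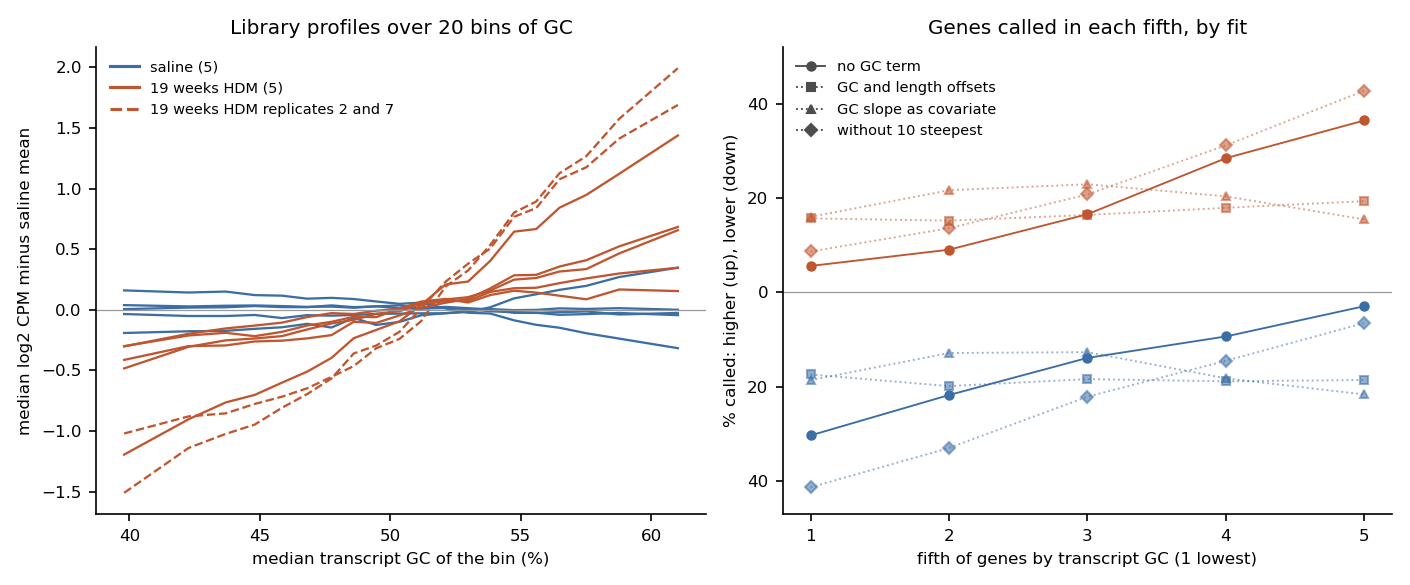
Left, median log2 CPM minus the saline mean in 20 bins of transcript GC (x axis, %), 1 line per library, with HDM replicates 2 and 7 dashed. Right, percent of genes called higher (upwards) and lower (downwards) in 5 classes of transcript GC (x axis) under the 4 fits: the share higher runs from 5.59% to 36.4% without a GC term and stays between 15.2% and 19.3% with offsets.

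Among genes called in all 4 fits, with at least 1 CPM in the higher group and no overlap between the 12 libraries, 10 of the 12 with the largest rise stood at or under 0.449 CPM in each saline library. The remaining 2, Clca1 and Mmp12, are given with goblet cells and macrophages. Npy (Gene ID 109648, chr6:49822710-49829507, GRCm38), which encodes neuropeptide Y, a transmitter of sympathetic nerves, measured 0, 0, 0.0691, 0.0389 and 0.033 CPM in saline replicates 1 to 5 and 14.2 to 50.03 CPM (median 34.2) at 19 weeks (log2 difference 9.8 ± 0.96, adjusted p = 8.37e-10). Dlk1 (chr12:109452485-109463336), a transmembrane protein of the Notch ligand family, measured 0, 0.0551, 0.449, 0.0778 and 0 CPM in saline and from 1.97 to 284 CPM (median 31.7) at 19 weeks (log2 difference 9.25 ± 1.65, adjusted p = 3.99e-05). Its log2 fold change was 11.0 without saline replicate 3 and 8.46 without HDM replicate 1, its highest library. Each HDM library lay above all saline libraries for both genes, and Dlk1 varied far more than Npy between HDM libraries. Awat1, an acyltransferase that makes wax esters, measured 0.384, 0, 0, 0.0389 and 0.066 CPM in saline and 9.51 to 69 CPM (median 37.6) with HDM (log2 difference 8.62 ± 0.64, adjusted p = 1.55e-12, and 10.06 without saline replicate 1). Fgf23, known as a bone-derived hormone of phosphate balance, measured 0.048, 0, 0.138, 0.0389 and 0 CPM and 3.9 to 54.6 CPM (median 12.8) (8.2 ± 1.21, adjusted p = 1.97e-06), and its log2 fold change was 9.15 without saline replicate 3 and 7.43 without HDM replicate 6. Tm4sf19, a tetraspanin-like membrane protein, went from 0.0617 ± 0.0486 to 12.9 ± 8.49 CPM.

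Of the 12, 3 had no count in any saline library, so only a lower bound can be given, set against 3 counts over the saline group. Msx3, a homeobox gene, was at least 107.5-fold higher (1.42 to 4.18 CPM (median 3.001) at 19 weeks). The gene listed as ccdc198 was at least 71.48-fold higher (0.6004 to 3.57 CPM (median 1.52)). Cyp2c40, a cytochrome P450, was at least 59.36-fold higher, with 0.0989 to 5.61 CPM (median 0.462), and its fitted log2 fold change of 7.75 was 6.77 without HDM replicate 6, its highest library. Prss46, a serine protease, had 1 count in saline and a ratio of 346.8 (95% counting interval 61.87 to 13740), and its fitted 7.63 was 8.73 without saline replicate 3 and 6.78 without HDM replicate 6. Ptgdr, the DP1 receptor for prostaglandin D2, had 3 counts in saline and a ratio of 172.2 (58.61 to 837.4), with 1.78 to 11.8 CPM (median 2.46) at 19 weeks. These intervals cover counting error only.

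The 12 genes with the largest fall were mostly of modest level in saline and near 0 with HDM. Hpgd (Gene ID 15446, chr8:56294552-56321046), the dehydrogenase that inactivates prostaglandins, measured 381, 359, 299, 370.5 and 366 CPM in saline and 3.27 to 59.6 CPM (median 6.64) at 19 weeks (log2 difference -4.46 ± 0.75, adjusted p = 1.6e-05), and -5.34 without HDM replicate 9, the highest of its group. Gria1 (chr11:57011571-57330244), a subunit of AMPA-type glutamate receptors, measured 19.1, 23.9, 17.6, 26.2 and 22.5 CPM and 0.312 to 0.989 CPM (median 0.407) (log2 difference -5.38 ± 0.72, adjusted p = 3.49e-07). Cd300e, a receptor of non-classical monocytes, measured 25, 9.92, 7.46, 5.87 and 26.7 CPM and 0.115 to 0.969 CPM (median 0.364) (log2 difference -4.91 ± 0.6, adjusted p = 6.38e-08). For all 3, each HDM library lay below each saline library. Fabp1, the liver-type fatty acid binding protein, measured 3.41, 4.57, 2.76, 3.11 and 1.39 CPM in saline and had counts in 1 HDM library, replicate 9, at 0.297 CPM. Its fitted log2 fold change was -5.53 ± 0.89 (adjusted p = 8.68e-06), and -8.80 without that library. Also among the 12 were Cst8, a cystatin (4.9 ± 1.19 to 0.189 ± 0.143 CPM), Slc5a12, a lactate transporter (5.75 ± 1.02 to 0.213 ± 0.32 CPM), Tecrl, a trans-2,3-enoyl-CoA reductase-like gene (2.31 ± 0.541 to 0.0784 ± 0.122 CPM), Glb1l3, a galactosidase-like gene (2.63 ± 0.274 to 0.106 ± 0.0896 CPM), and Cyp2b19, a P450 (1.65 ± 0.73 to 0.0508 ± 0.0653 CPM). Without HDM replicate 9, Slc5a12 became -5.80 and Tecrl -5.67. The remaining 3, Lep, Retn and Klre1, are given with adipose tissue and with natural killer cells.

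**Figure D2:**
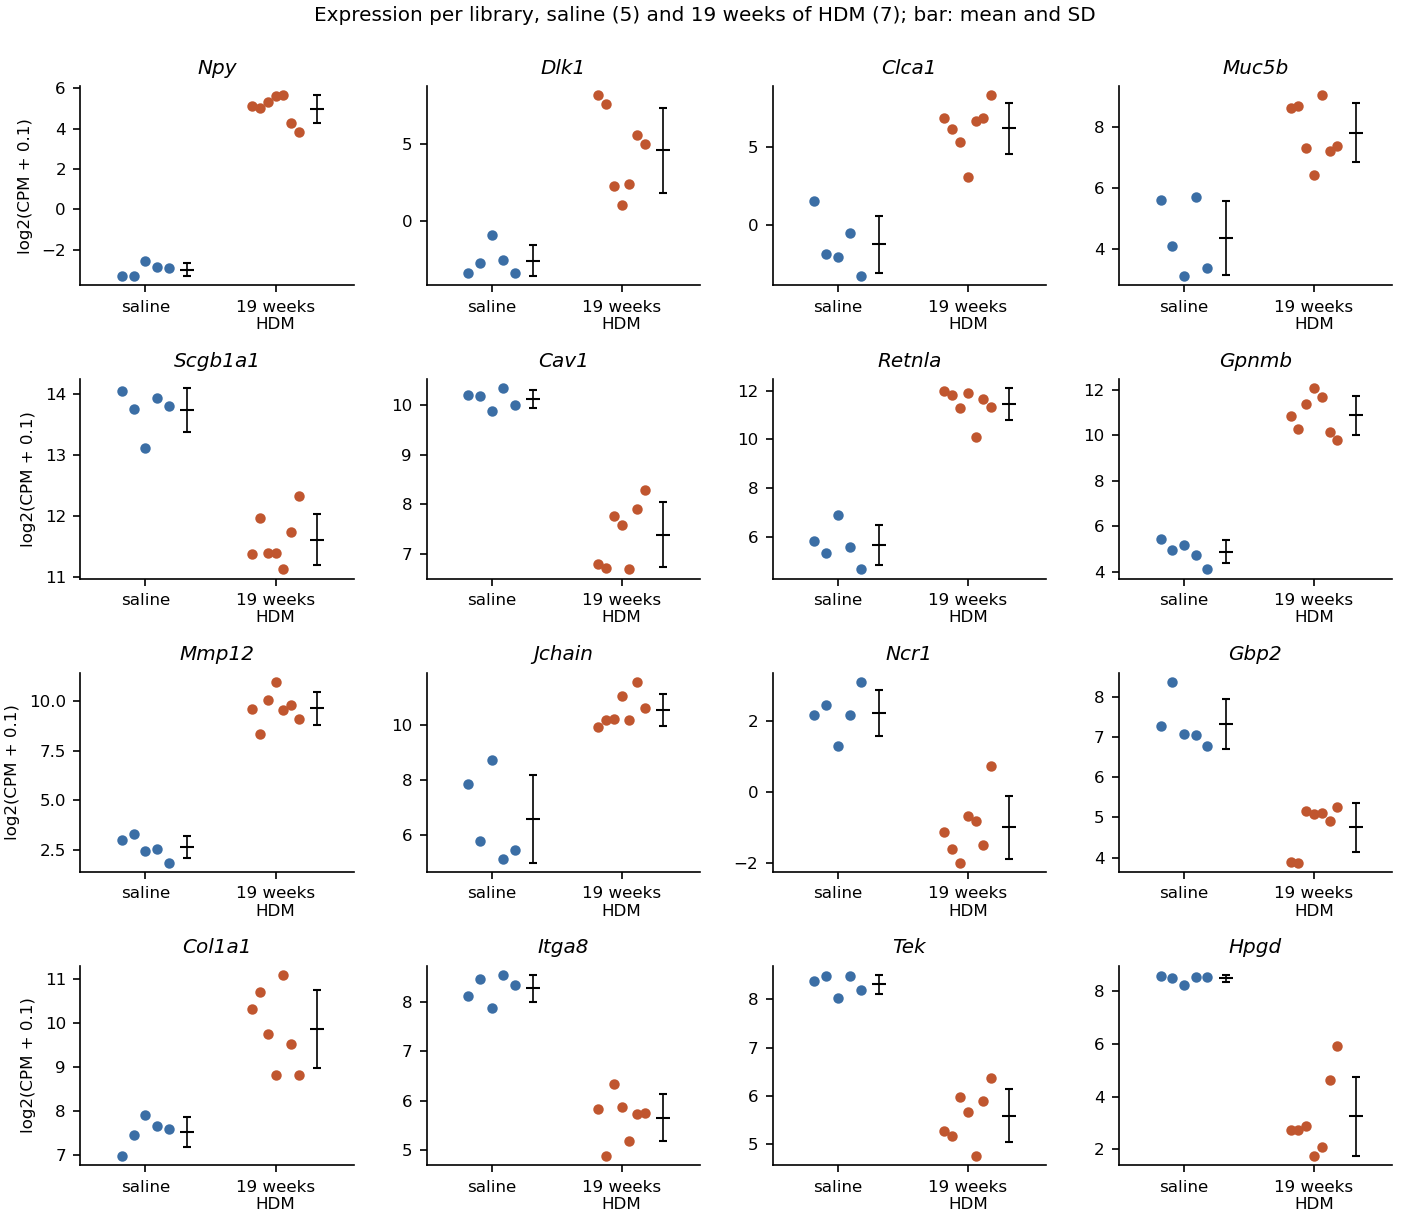
Each point is 1 library and shows log2(CPM + 0.1), with a bar for the mean and SD of the log values, for 16 genes in saline and at 19 weeks of HDM. Npy, Retnla, Gpnmb and Mmp12 are higher in all 7 HDM libraries than in any saline library, and Scgb1a1, Cav1, Itga8, Tek and Hpgd are lower in all 7.

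By absolute change in CPM, the 6 largest rises among genes called in all 4 fits were Chil3, Ftl1, Ctsd, Psap, Fth1 and Chil1. Ftl1 and Fth1, the light and heavy chains of ferritin, which stores iron, went from 1134 ± 233 to 8726 ± 4205 CPM and from 865 ± 68.3 to 5424 ± 2223 CPM (log2 difference 2.65 ± 0.39, adjusted p = 1.66e-06). Psap, the precursor of the lysosomal saposins, went from 907 ± 103 to 6095 ± 1849 CPM. The 6 largest falls were Scgb1a1, Hbb-b1, Gsn, Cyp2f2, Cbr2 and Adgrf5. Gsn, the actin-severing protein gelsolin, went from 2490.0 ± 479 to 1070.5 ± 380.1 CPM (log2 difference -1.22 ± 0.35, adjusted p = 0.00642), and Adgrf5, an adhesion receptor of alveolar and endothelial cells, from 1481 ± 238 to 433 ± 122 CPM (-1.77). Cbr2, the lung carbonyl reductase, went from 1520.1 ± 132 to 453 ± 199.7 CPM (-1.75).

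Some calls differed between the fits. The genes that moved most towards 0 when the GC slope was a covariate were, among those higher, Scand1, Nrtn, Ier5l, Bc1, H1f10 and Lrfn1, and 5 of the 6 have a transcript GC of 62.1% to 72.8%. Bc1, a small neuronal RNA, is the exception at 40.5%. H1f10, a linker histone, had a log2 fold change of 2.99 without a GC term and 0.76 with the covariate. Scand1 went from 3.77 to 1.37, Ier5l from 3.58 to 1.26 and Bc1 from 2.99 to 0.76. None of these 4 passed the test with the covariate (adjusted p = 0.0545 to 0.278). For Lrfn1, a synaptic adhesion protein, the value turned from 2.03 to -0.16, and its call was lost without saline replicate 1, 4 or 5 or HDM replicate 2 or 7 (adjusted p = 0.0535 to 0.0732), or without both libraries that stand apart (0.0599). In HDM replicates 2, 7 and 1 Lrfn1 stood at 7.16, 8.94 and 5.9 CPM, against 1.5, 0.779, 1.94 and 1.85 CPM in the others. Among those lower were Nebl, Golm2, Tmod2 and the guanylate-binding proteins Gbp4, Gbp9 and Gbp10. Nebl, a Z-disc protein, went from -1.64 to 0.03, and its call was lost without saline replicate 1, 2 or 4 or HDM replicate 1, 2, 7 or 9 (adjusted p = 0.058 to 0.0836), or without both libraries that stand apart (0.0546). Golm2 went from -1.82 to -0.45. Tmod2, a tropomodulin, was -2.51 and -1.11 and kept its call in all 4 fits.

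**Figure D3:**
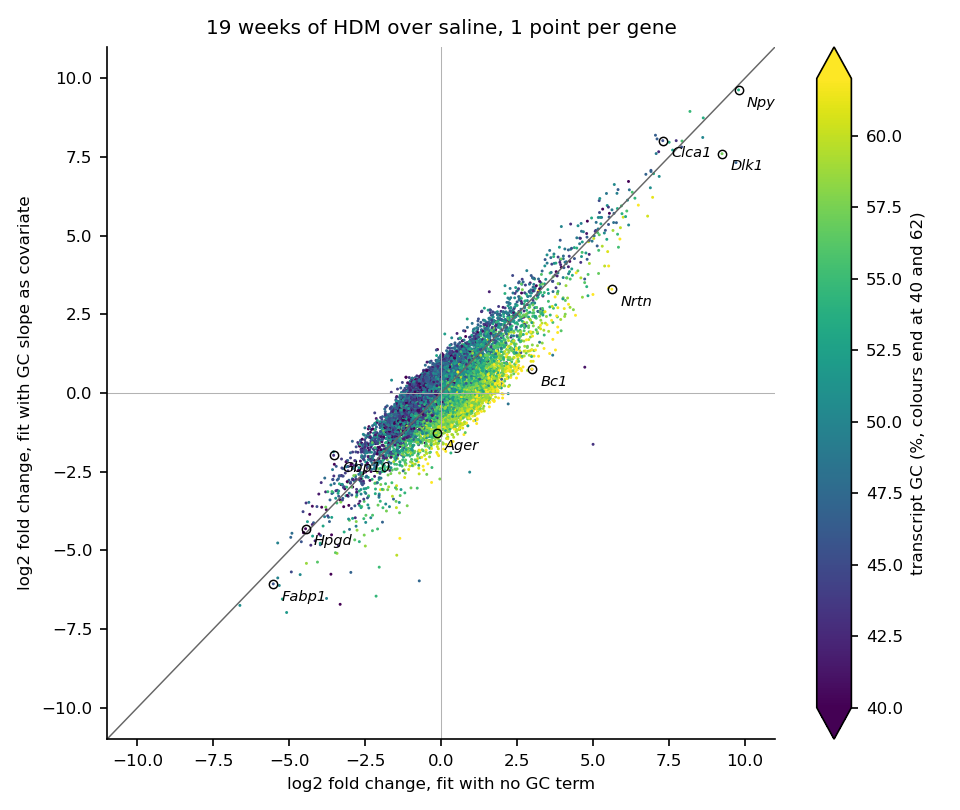
Log2 fold change (19 weeks of HDM minus saline), 1 point per gene tested with a known transcript GC, in the fit without a GC term (x axis) and with the GC slope as covariate (y axis), coloured by transcript GC, with the diagonal. Genes far from 0 such as Npy, Clca1 and Hpgd lie near the diagonal, and genes of high GC lie below it while those of low GC lie above it.

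Of the type 2 ligands and alarmins, 7 of 11 had enough counts to be tested, and 3 rose and 1 fell in all 4 fits, where 10.1% and 7.94% of all genes did. Il13 (chr11:53631323-53634702), the cytokine of goblet cell change, had 2 counts in saline (0, 0, 0.0345, 0.0389 and 0 CPM) and 1.75 to 4.73 CPM (median 2.71) at 19 weeks. Its ratio of CPM was 174.8 (95% counting interval 48.06 to 1449; log2 difference 7.0 ± 0.8, adjusted p = 1.74e-08). Il5, the eosinophil growth factor, measured 0, 0.0551, 0.242, 0.117 and 0.033 CPM and 0.231 to 1.14 CPM (median 0.508). Those groups overlapped, and its log2 difference was 2.49 ± 0.84 (adjusted p = 0.0199) and 3.24 without saline replicate 3. Its call was lost without saline replicate 1 (adjusted p = 0.0594) or 5 (adjusted p = 0.0596). Areg, the epidermal growth factor receptor ligand amphiregulin, rose from 1.95 ± 0.552 to 4.74 ± 1.14 CPM. Tslp fell from 3.24 ± 0.982 to 0.968 ± 0.476 CPM (log2 difference -1.73 ± 0.35, adjusted p = 0.000229). Il33 measured 12.4 ± 1.48 and 15.2 ± 6.29 CPM (log2 difference 0.29 ± 0.43, adjusted p = 0.613). With the GC slope as covariate it was 1.26 and passed the test (adjusted p = 1.45e-06), and whether its mouse or a humanised sequence was present is not given.

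Of 16 receptor and regulator genes of type 2 lymphocytes, 9 rose and none fell, 7 of them in all 4 fits. Without both libraries that stand apart, 6 rose. Il13ra2, a decoy receptor for IL-13, measured 0.096, 0, 0.242, 0 and 0.033 CPM and 0.808 to 6.44 CPM (median 1.43) (log2 difference 4.82 ± 0.83, adjusted p = 2.67e-05, and 5.95 without saline replicate 3). Csf2rb, the shared chain of the IL-3, IL-5 and GM-CSF receptors, rose from 51.4 ± 14.6 to 363 ± 69 CPM (log2 difference 2.82 ± 0.29, adjusted p = 1.54e-09), and every HDM library was above every saline one. Il1rl1, which encodes the IL-33 receptor ST2, rose from 5.18 ± 0.934 to 33 ± 15.8 CPM (log2 difference 2.67 ± 0.56, adjusted p = 0.000323). Crlf2, the TSLP receptor, measured 3.02, 4.24, 6.18, 3.42 and 3.6 CPM and 12.2 to 149.7 CPM (median 40.9). Its log2 fold change of 3.68 was 1.99 with offsets and 1.71 with the GC slope, and its transcript GC is 65.2%. Il4ra rose from 100.1 ± 11 to 249 ± 104 CPM without a GC term (1.31, adjusted p = 0.0183), but had 0.2 with the GC slope, and its call was lost without HDM replicate 2 (adjusted p = 0.0503) and without both libraries that stand apart (adjusted p = 0.0561).

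Goblet cell genes rose. Of 19 tested, 17 rose and 1 fell, 16 and 1 in all 4 fits, and the median log2 fold change was 3.18, against 0.0105 over all genes tested. Clca1 (chr3:145004537-145032776), a secreted regulator of chloride channels and a marker of goblet cells, measured 2.83, 0.165, 0.138, 0.583 and 0 CPM in saline and 8.57 to 335 CPM (median 105) at 19 weeks (log2 difference 7.3 ± 1.27, adjusted p = 2.76e-05, and 8.97 without saline replicate 1). Slc26a4 (chr12:31519814-31560055), the anion exchanger pendrin, measured 14.7, 6.72, 3.77, 7.89 and 5.55 CPM and 169 to 675 CPM (median 459) (log2 difference 5.79 ± 0.54, adjusted p = 2.03e-10). The gel-forming mucins both rose, Muc5b from 47.9, 16.7, 8.43, 51.4 and 10.2 CPM to 86.3 to 528 CPM (median 165) (log2 difference 3.33 ± 0.51, adjusted p = 4.02e-06) and Muc5ac from 1.63, 1.21, 0.587, 1.28 and 0.726 CPM to 2.34 to 15.8 CPM (median 8.92) (log2 difference 3.08 ± 0.53, adjusted p = 2.64e-05). No HDM library overlapped a saline one for any of these 4. Fcgbp, a mucus-binding protein, rose by 4.73 ± 0.7, Itln1, an intelectin, by 4.77 ± 0.67, and Foxa3, a transcription factor of goblet cells, by 3.6 ± 0.64. For Spdef, the other goblet factor listed, the groups overlapped and the log2 fold change of 2.02 was 0.75 with the GC slope. Galnt5, a mucin-type glycosyltransferase, was the member that fell.

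Club cell genes fell. Of 14 tested, 7 fell in all 4 fits (median -1.37), and 1 rose without a GC term. Scgb1a1 (chr19:9083642-9087956) measured 16958, 13892, 8897, 15681 and 14338 CPM in saline and 2229 to 5153 CPM (median 2679) at 19 weeks, with no overlap (log2 difference -2.1 ± 0.43, adjusted p = 0.000226). Scgb3a2, a second secretoglobin, fell from 348 ± 75.1 to 49 ± 33.3 CPM (log2 difference -2.83 ± 0.73, adjusted p = 0.00298). Cyp2f2, the club cell P450, measured 1955, 1738, 1519.6, 1811 and 1291 CPM and 116 to 614 CPM (median 366) (log2 difference -2.27 ± 0.43, adjusted p = 0.000103). Aldh1a1, a retinaldehyde dehydrogenase, and Gsta3, a glutathione transferase, fell by 2.62 and by 2.94. The member that rose was Scgb3a1, another secretoglobin, at 45.5 ± 29.4 to 166 ± 79 CPM, and its 1.87 ± 0.62 (adjusted p = 0.0185) was lost with the GC slope (0.65), without saline replicate 2 (adjusted p = 0.0553) and without both libraries that stand apart (adjusted p = 0.0555). Of 18 genes of motile cilia, 6 fell and none rose, 3 in all 4 fits. Over all genes tested 15.6% fell, 7.94% in all 4 fits. Foxj1, the master factor of ciliated cells, had 0.65 without a GC term and -0.52 with offsets and passed neither test.

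Alveolar type 1 and type 2 genes went opposite ways. Of 18 type 1 genes, 10 fell and none rose, 7 in all 4 fits and 14 with offsets (median -1.37). Cav1 (chr6:17306335-17341328), the coat protein of caveolae, which both type 1 cells and endothelium carry, measured 1181, 1154, 943, 1292 and 1028 CPM and 103 to 312 CPM (median 191) (log2 difference -2.61 ± 0.37, adjusted p = 8.41e-07). Hopx, a homeodomain cofactor of type 1 cells, measured 388, 415, 366, 420.3 and 363 CPM and 51 to 116 CPM (median 89.4) (log2 difference -2.19 ± 0.27, adjusted p = 8.74e-08), and Clic5, an intracellular chloride channel protein, fell by 2.13. For Ager the call changed with the GC term. Its log2 fold change was -0.15 ± 0.42 (adjusted p = 0.801) without a GC term and -1.1 and -1.29 with offsets and with the slope, both of them called. Ager stood at 1952 and 1383 CPM in HDM replicates 2 and 7 and at 682 CPM in replicate 9. Of 20 type 2 and surfactant genes, 15 rose and none fell, 8 in all 4 fits, and 11 rose without both libraries that stand apart. Sftpd, a surfactant collectin, measured 608, 516, 374, 519 and 349.7 CPM and 1588 to 2426 CPM (median 1825) (log2 difference 1.97 ± 0.26, adjusted p = 2.14e-07). Slc34a2, the type 2 phosphate carrier, rose by 1.0 ± 0.26, while Sftpc itself did not pass the test (0.51, adjusted p = 0.135). Chil1, a chitinase-like protein listed with these genes and made by macrophages as well, measured 836, 303, 488, 337 and 402 CPM and 3766 to 5927 CPM (median 5031) (log2 difference 3.41 ± 0.28, adjusted p = 1.27e-11).

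Of 16 genes of transitional alveolar epithelium, a state seen after alveolar injury, 7 rose and none fell, 5 in all 4 fits. Lgals3, a lectin that macrophages also carry, measured 99, 96, 147, 98.8 and 90.7 CPM and 1029 to 3323 CPM (median 1420.3) (log2 difference 4.02 ± 0.51, adjusted p = 1.36e-07). Cldn4, a tight junction claudin, rose from 3.85 ± 3.1 to 23.2 ± 12.2 CPM (2.58, and 3.2 without saline replicate 3). Krt8, the keratin this state is named for, had 0.33 ± 0.3 (adjusted p = 0.394) without a GC term and fell by 0.43 with the GC slope (adjusted p = 0.0168).

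Macrophage genes held several of the largest differences. Of 22 genes of alternatively activated macrophages, the state driven by IL-4 and IL-13, 12 rose and 3 fell, 10 and 2 in all 4 fits (median 1.52), and 2 fell without both libraries that stand apart. Retnla (chr16:48842609-48844461), which encodes the resistin-like protein RELMα, measured 56.8, 40.2, 120.0, 47.4 and 25 CPM in saline and 1096 to 4065 CPM (median 3259.8) at 19 weeks (log2 difference 5.7 ± 0.56, adjusted p = 8.52e-10). Chil3 (chr3:106147554-106167564), the chitinase-like protein Ym1, measured 514, 419.8, 254, 255 and 110.1 CPM and 4288 to 17684 CPM (median 7327) (log2 difference 4.81 ± 0.41, adjusted p = 3.04e-11). Its near-identical neighbour Chil4 measured 0.144, 0.275, 25.8, 0.583 and 0.0991 CPM and 47.3 to 201 CPM (median 64.2), and its 4.24 was 8.48 without saline replicate 3. How reads were split between these 2 genes is not given, so their separate values are uncertain. Arg1, arginase, measured 1.78, 1.43, 14.6, 1.67 and 1.62 CPM and 36.2 to 340.2 CPM (median 254) (log2 difference 5.63 ± 0.97, adjusted p = 2.56e-05, and 7.0 without saline replicate 3). Il4i1, an IL-4-induced amino acid oxidase, rose from 4.22 ± 1.67 to 154 ± 83.6 CPM (log2 difference 5.19 ± 0.73, adjusted p = 9.73e-07). Cd209e, a C-type lectin, measured 0.144, 0, 0.242, 0.0778 and 0 CPM and 0.115 to 2.47 CPM (median 1.99). Its groups overlapped (log2 difference 3.85 ± 0.78, adjusted p = 0.00022, and 4.60 without saline replicate 3).

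The promoters of Retnla and Cd209e are shown because these genes rose and because STAT6, the factor that IL-4Rα activates, binds a spaced palindrome. Windows run from 250 bases before to 50 after each gene's start, 5′ to 3′ on the gene's strand, from RefSeq on GRCm38. Capitals mark TTCNNNNGAA, which reads the same on both strands. Retnla spans chr16:48842359-48842658 (plus strand) and Cd209e chr8:3854237-3854536 (minus strand).
Retnla: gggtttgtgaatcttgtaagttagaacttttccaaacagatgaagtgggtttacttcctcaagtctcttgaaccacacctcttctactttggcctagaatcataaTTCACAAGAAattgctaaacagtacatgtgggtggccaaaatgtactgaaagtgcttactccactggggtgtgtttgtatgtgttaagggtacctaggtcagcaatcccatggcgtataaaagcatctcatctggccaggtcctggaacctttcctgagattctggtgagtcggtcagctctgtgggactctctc
Cd209e: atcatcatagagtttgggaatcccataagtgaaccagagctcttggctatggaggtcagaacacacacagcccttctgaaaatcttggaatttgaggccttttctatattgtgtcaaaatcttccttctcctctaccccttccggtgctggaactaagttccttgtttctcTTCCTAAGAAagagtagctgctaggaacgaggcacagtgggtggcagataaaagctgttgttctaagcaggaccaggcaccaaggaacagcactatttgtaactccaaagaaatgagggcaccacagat
This motif was in 4 of the 17 alternatively activated macrophage genes with a window (Retnla, Ccl17, Cd209e and Pdcd1lg2), or 23.5%, and in 8.01% of the 27025 genes with a window. None of the 11 goblet cell genes with a window held it, and 3 of the 22 interferon response genes did (13.6%). Among genes with a window it was in 6.51% of those that rose in all 4 fits and in 8.26% of those that fell. Of all genes tested with a window, 6.6% held it, so it was not more frequent among the genes that rose. A match describes letters and was not tested as a binding site.

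Lipid-handling and monocyte-derived macrophage genes rose in 19 of 23 cases and fell in none, 18 in all 4 fits (median 2.13). Mmp12 (chr9:7344397-7360461), macrophage elastase, measured 7.83, 9.58, 5.35, 5.68 and 3.47 CPM and 321 to 2048 CPM (median 789) (log2 difference 7.17 ± 0.75, adjusted p = 2.96e-09). Gpnmb (chr6:49036518-49058182), a lysosomal glycoprotein, measured 44, 31, 36.3, 26.7 and 17.2 CPM and 892 to 4295 CPM (median 1822) (log2 difference 6.14 ± 0.66, adjusted p = 4.2e-09). Spp1, osteopontin, measured 34.6, 31.9, 23.5, 77.7 and 30.4 CPM and 414 to 3792 CPM (median 1659.9) (log2 difference 5.54 ± 0.63, adjusted p = 1.78e-08). Ctsk and Ctsd, lysosomal cathepsins, rose from 18.3 ± 7.1 to 714 ± 401 CPM and from 612 ± 209 to 5996 ± 1989 CPM. Trem2, a lipid-sensing receptor, rose by 4.13 ± 0.41, and Cd68, a lysosomal marker of macrophages, by 3.52 ± 0.31. No HDM library overlapped a saline one for these 7 genes. The summed CPM of the list ran from 2465 to 4478 in saline and from 15420 to 29410 at 19 weeks.

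Genes of resident macrophages did not follow them as a group. Of 18 alveolar macrophage genes, 5 rose and 6 fell, 5 and 4 in all 4 fits (median -0.23). The summed CPM of that list was higher with HDM, at 687 to 1422 in saline and 5413 to 19630 at 19 weeks. This sum followed Chil3, given above, which alone measured 4288 to 17684 CPM at 19 weeks. The sum therefore does not describe the list as a whole. Ear1, an eosinophil-associated ribonuclease that alveolar macrophages carry, fell from 21.5 ± 7.06 to 2.77 ± 1.55 CPM (log2 difference -2.95 ± 0.52, adjusted p = 2.97e-05), and Fabp1, given above, is on this list, while Pparg, the factor of alveolar macrophage identity, had 0.28 (adjusted p = 0.304) and passed the test with offsets (0.6, adjusted p = 0.0278). Of 21 genes of interstitial macrophages and monocytes, 5 rose and 5 fell, 3 and 4 in all 4 fits. Treml4, a receptor of non-classical monocytes, measured 30.8, 11.7, 10.8, 9.1 and 36.4 CPM and 0.676 to 5.51 CPM (median 1.13) (log2 difference -3.39 ± 0.44, adjusted p = 2.41e-07, and -4.0 without HDM replicate 9). Cx3cr1, the fractalkine receptor, fell by 1.68. Lyve1, a hyaluronan receptor of resident macrophages and of lymphatic vessels, fell from 169 ± 18.9 to 34 ± 16.1 CPM (-2.31).

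**Figure D4:**
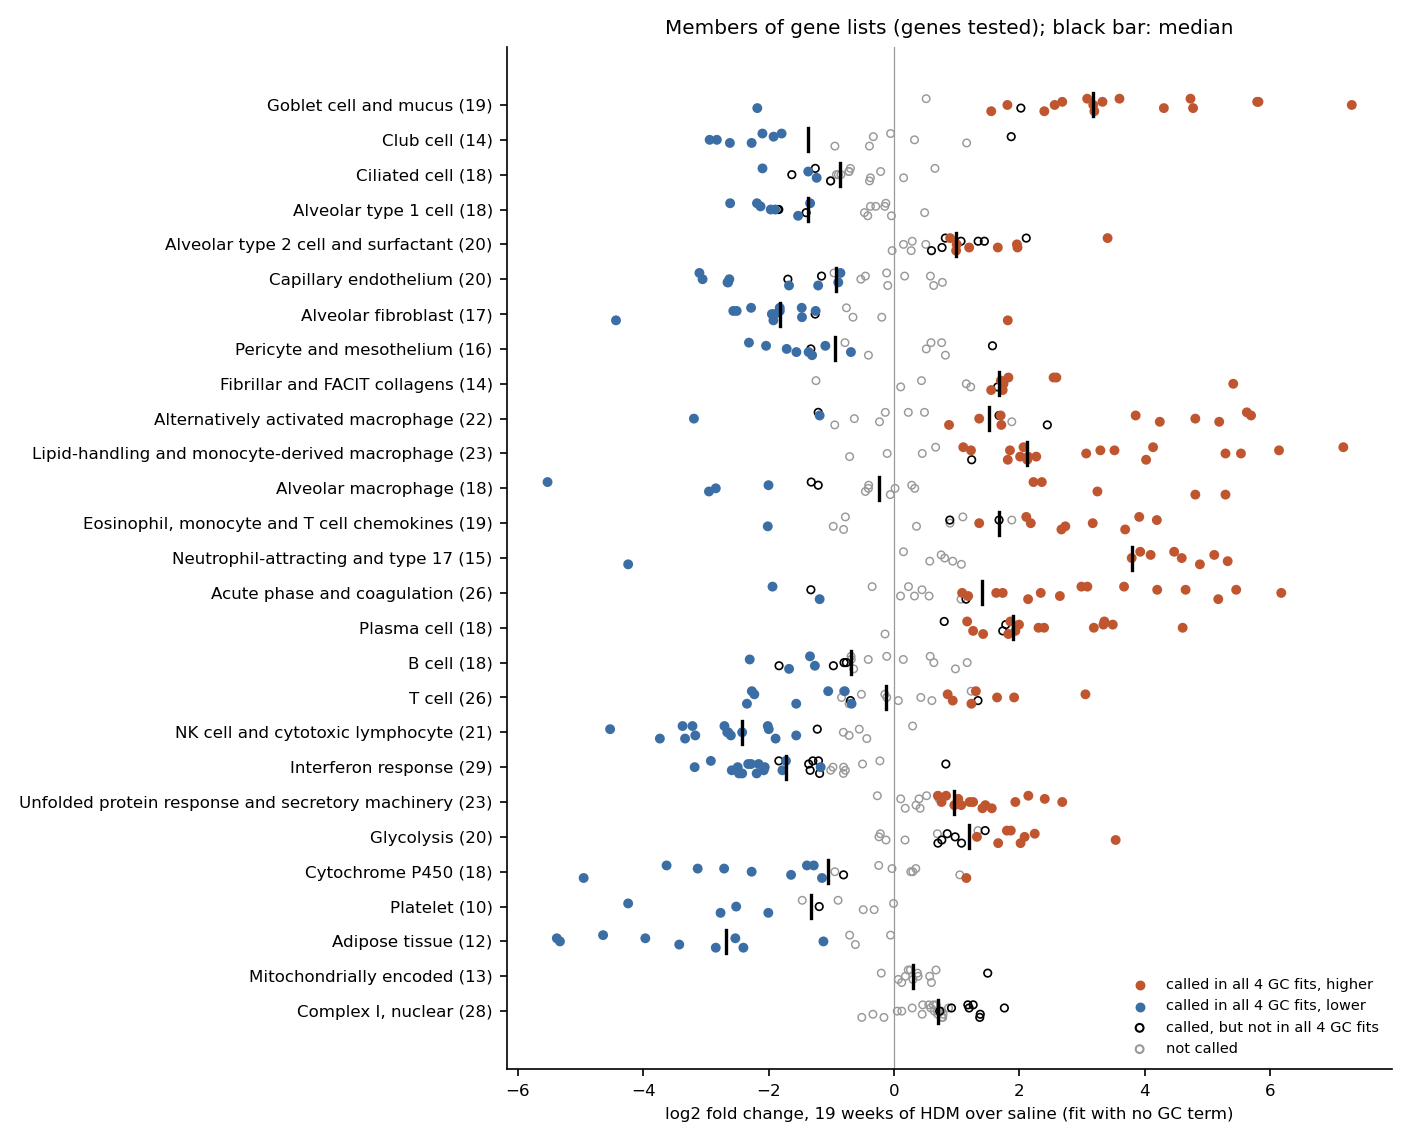
Each point is 1 tested member of a gene list (rows, with the number tested) at its log2 fold change, 19 weeks of HDM over saline (x axis). Points are filled where the gene was called in all 4 fits, open in black where called without a GC term only or in some fits, and grey where not called, with a bar at the list's median. Goblet, lipid-handling macrophage and plasma cell genes lie mostly above 0, and club, alveolar fibroblast, natural killer and interferon genes mostly below 0.

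Chemokines that attract eosinophils, monocytes and T cells rose in 11 of 19 cases and 1 fell, 9 and 1 in all 4 fits. Ccl11, eotaxin-1, measured 1.78, 0.992, 8.57, 1.71 and 1.55 CPM and 30.3 to 79.5 CPM (median 42.1) (log2 difference 3.91 ± 0.51, adjusted p = 2.01e-07, and 4.85 without saline replicate 3). Ccl24, eotaxin-2, overlapped between groups (1.88, adjusted p = 0.123). Ccl8, a monocyte and type 2 T cell chemokine, measured 8.45, 1.65, 9.33, 1.36 and 0.561 CPM and 40.9 to 87.3 CPM (median 43.9) (log2 difference 3.69 ± 0.61, adjusted p = 1.2e-05). Ccl3 measured 1.63, 1.27, 0.415, 0.817 and 1.22 CPM and 11 to 29.9 CPM (median 20.1) (log2 difference 4.19 ± 0.5, adjusted p = 3.57e-08). Of 12 eosinophil genes, 3 rose and 3 fell, or 2 and 3 without saline replicate 3. Ccl5, which cytotoxic lymphocytes make, fell by 2.01, with 1 saline library, replicate 1, at 13.3 CPM inside the HDM range.

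More ligands of the neutrophil receptor CXCR2 and type 17 genes rose than fell, while most neutrophil genes did not pass the test. Of 22 listed genes, 15 had enough counts to be tested. A gene silent in saline could pass this filter only through libraries of other groups, which favours rises among the genes tested. Of the 15, 8 rose and 1 fell in all 4 fits, with a median of 3.79 (3.07 with genes at 0 in saline set to their bound). Cxcl5 measured 1.58, 0.275, 0.207, 0.156 and 0.198 CPM and 6.15 to 42.6 CPM (median 17.7) (log2 difference 5.32 ± 0.62, adjusted p = 3e-08, and 6.46 without saline replicate 1), and Cxcl2 0.384, 0.22, 0.104, 0.0778 and 0.462 CPM and 4.47 to 14 CPM (median 9.7) (log2 difference 5.11 ± 0.7, adjusted p = 5.15e-07). Lcn2, the iron-binding lipocalin, measured 97.7, 61.8, 44.7, 74.5 and 57.6 CPM and 1183 to 1822 CPM (median 1446) (log2 difference 4.47 ± 0.28, adjusted p = 4.45e-15). Il6, a cytokine of the acute phase, rose by 3.79 ± 0.65. Il17a had no count in saline and 27 in all at 19 weeks, at least 8.391-fold more, with 0.0508 to 0.396 CPM (median 0.173). Of 17 neutrophil genes, 1 rose and 1 fell, or 3 and 1 without saline replicate 3. S100a8, a granulocyte calcium-binding protein, had 0.75 (adjusted p = 0.295) with overlapping groups.

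Acute phase and coagulation genes rose in 16 of 26 cases and fell in 3, 15 and 2 in all 4 fits, and 1 fell without both libraries that stand apart. Saa3, a serum amyloid A of extrahepatic tissue, measured 5.66, 1.82, 12.9, 3.89 and 1.06 CPM and 210.0 to 614 CPM (median 279.9) (log2 difference 6.18 ± 0.81, adjusted p = 2.41e-07, and 6.87 without saline replicate 3). Itih4, an inter-alpha-trypsin inhibitor chain, measured 116, 57.4, 63.6, 61.5 and 46.9 CPM and 1175 to 2743 CPM (median 1551) (log2 difference 4.65 ± 0.46, adjusted p = 1.03e-09), and Fga, the fibrinogen alpha chain, rose from 0.761 ± 0.608 to 27.3 ± 13.5 CPM (log2 difference 5.17 ± 0.59, adjusted p = 1.74e-08). Of 19 genes for antimicrobial secretions, 13 rose in all 4 fits and none fell without a GC term. Of 24 complement genes, 9 rose and 3 fell, or 8 and 1 without both libraries that stand apart.

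Mast cell proteases were near silent in saline. Mcpt1 rose from 0.0407 ± 0.0255 to 3.44 ± 2.53 CPM (log2 difference 6.2 ± 1.12, adjusted p = 5.09e-05). Mcpt2 had 3 counts in saline and a ratio of 162.5 (95% counting interval 55.31 to 790.7), with 0.577 to 15.1 CPM (median 2.27) at 19 weeks, and its fitted 6.91 was 5.90 without HDM replicate 6. Tpsab1, a tryptase, had 2 counts in saline and a ratio of 349.2 (96.32 to 2888), but HDM replicate 6 alone held 31.4 CPM against a group median of 0.923, replicate 5 had none, and its fitted 7.94 was 5.74 without replicate 6 and 9.67 without saline replicate 3. Cpa3, the mast cell carboxypeptidase, had 0.01 (adjusted p = 0.991). Of 14 mast cell and basophil genes, 5 rose and 1 fell. Mcpt1 and Mcpt2, and Tpsab1 and its neighbour Tpsb2, are close copies between which reads may be shared.

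Plasma cell genes rose in 17 of 18 cases, 14 in all 4 fits (median 1.90). Jchain (chr5:88519809-88527897), which joins IgA and IgM chains, measured 235, 55.4, 421, 34.7 and 44 CPM and 986 to 3086 CPM (median 1198) (log2 difference 3.36 ± 0.6, adjusted p = 4.33e-05, and 4.12 without saline replicate 3). Mzb1, an immunoglobulin chaperone, rose from 9.24 ± 5.82 to 93.7 ± 47.5 CPM (log2 difference 3.34 ± 0.45, adjusted p = 4.81e-07), and Derl3, a factor that removes misfolded proteins from the endoplasmic reticulum, from 1.71 ± 1.25 to 41.8 ± 21.7 CPM (log2 difference 4.61 ± 0.59, adjusted p = 1.53e-07). Pigr, the epithelial receptor that carries IgA into the airway, measured 79.3, 60.9, 41.8, 57 and 41.6 CPM and 308 to 937 CPM (median 612) (log2 difference 3.49 ± 0.47, adjusted p = 3.29e-07). Prdm1, the plasma cell factor Blimp-1, which other cells express as well, was the member not called (-0.14, adjusted p = 0.797). Of B cell genes, 8 of 18 fell and none rose, 4 in all 4 fits. Cr2, the complement receptor of B and follicular dendritic cells, fell from 16.9 ± 4.73 to 3.39 ± 1.59 CPM (log2 difference -2.3 ± 0.51, adjusted p = 0.000591).

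Genes of the unfolded protein response and the secretory machinery, which plasma cells and goblet cells both use, rose in 15 of 23 cases in all 4 fits and fell in none, and 19 rose with offsets. Sdf2l1, an endoplasmic reticulum chaperone cofactor, rose from 11.9 ± 2.6 to 62.8 ± 18.1 CPM (log2 difference 2.4 ± 0.34, adjusted p = 1.04e-06). Creld2 (chr15:88819646-88826681), another stress-induced protein of that compartment, measured 25.6, 19.3, 23.4, 19.8 and 18.1 CPM and 60.8 to 108 CPM (median 75.6), without overlap (log2 difference 1.94 ± 0.23, adjusted p = 4.8e-08). Hspa5, the chaperone BiP, had 0.52 (adjusted p = 0.0966) without a GC term and 0.66 with offsets, where it was called. The promoter of Creld2 (chr15:88819396-88819695, plus strand, same source and window) is shown because it holds the endoplasmic reticulum stress element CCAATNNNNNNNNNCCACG, here on the opposite strand and in capitals.
Creld2: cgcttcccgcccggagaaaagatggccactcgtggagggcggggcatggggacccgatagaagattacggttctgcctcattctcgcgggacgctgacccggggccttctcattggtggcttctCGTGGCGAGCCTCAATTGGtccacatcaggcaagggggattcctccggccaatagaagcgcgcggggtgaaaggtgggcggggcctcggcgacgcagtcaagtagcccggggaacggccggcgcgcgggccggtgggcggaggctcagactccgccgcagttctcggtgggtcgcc
That element was in 5 of the 19 genes of the list with a window (Creld2, Hspa5, Hsp90b1, Dnajc3 and Pdia6), or 26.3%, and in 0.137% of all genes with a window.

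Of 26 T cell genes, 8 rose and 8 fell, 7 in each direction in all 4 fits. Those that rose included Pdcd1, the checkpoint receptor PD-1, from 0.696 ± 0.459 to 5.78 ± 1.43 CPM (log2 difference 3.05 ± 0.37, adjusted p = 4.64e-08), and Tnfrsf4, the costimulatory receptor OX40 (1.64 ± 0.37). Those that fell included Cd8a, at 6.58, 29.7, 22.6, 22.2 and 36.9 CPM in saline and 2.01 to 8.94 CPM (median 3.52) with HDM, with saline replicate 1 inside the HDM range (log2 difference -2.35 ± 0.45, adjusted p = 0.000123). Tbx21, the factor T-bet of type 1 and cytotoxic lymphocytes, fell by 1.56, again with saline replicate 1 overlapping. Cd4 measured 13.3 ± 3.002 and 14 ± 3.2 CPM (0.07, adjusted p = 0.899).

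Natural killer and cytotoxic genes fell in 16 of 21 cases and rose in none, 15 in all 4 fits (median -2.42). Ncr1 (chr7:4337715-4345184), the receptor NKp46 that marks natural killer cells, measured 4.32, 5.29, 2.35, 4.36 and 8.45 CPM and 0.15 to 1.55 CPM (median 0.356) (log2 difference -3.21 ± 0.45, adjusted p = 8.17e-07). Klre1, a lectin-like receptor, measured 2.4, 4.41, 2.9, 3.97 and 7.23 CPM and 0 to 0.527 CPM (median 0.102) (log2 difference -4.53 ± 0.63, adjusted p = 7.23e-07). Gzma, granzyme A, measured 22.2, 53.9, 38.2, 44.9 and 68.6 CPM and 0.901 to 10.9 CPM (median 2.49) (log2 difference -3.73 ± 0.57, adjusted p = 3.33e-06), and Prf1, perforin, fell by 2.60. Ifng, interferon gamma, fell from 0.849 ± 0.377 to 0.148 ± 0.0997 CPM (log2 difference -2.42 ± 0.56, adjusted p = 0.0011). The groups did not overlap for these 5. HDM replicate 9 was the highest of its group for Ncr1, Klre1, Gzma and Prf1. Without it Ncr1 was -3.87, Klre1 -5.32 and Gzma -4.43. The summed CPM of the list ran from 127 to 351.7 in saline and from 41.6 to 104 at 19 weeks.

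Interferon response genes fell with them. Of 29, 21 fell and 1 rose, 15 and 0 in all 4 fits (median -1.72). Gbp2 (chr3:142620663-142638008), a guanylate-binding protein induced by interferon gamma, measured 154, 332, 135, 133 and 110.3 CPM and 14.5 to 38.5 CPM (median 34) (log2 difference -2.59 ± 0.43, adjusted p = 1.42e-05). Tgtp2, an immunity-related GTPase, measured 103, 245, 111, 133 and 93.9 CPM and 3.26 to 32.5 CPM (median 14.9) (log2 difference -3.18 ± 0.56, adjusted p = 3.72e-05), and Irgm2, a regulator of that family, fell by 2.16. Ifit3, induced by type I interferon, measured 78.7, 81.1, 54.3, 57.5 and 55.4 CPM and 8.23 to 30.3 CPM (median 13.8) (log2 difference -2.06 ± 0.36, adjusted p = 3.34e-05). In each of these 4 the groups did not overlap, and saline replicate 2 was the highest library for all of them. Gbp4 went from -2.92 to -1.53, Gbp10 from -3.54 to -1.98 and Gbp9 from -2.19 to -0.63 with the GC slope, where Gbp9 lost its call. Cxcl9, induced by interferon gamma, overlapped (-0.8, adjusted p = 0.314). Oas1a was the member that rose (0.83, adjusted p = 0.0449), a call lost when any of 8 of the 12 libraries was left out (adjusted p = 0.0674 to 0.163). Gbp, Irg and Tgtp genes are families of close copies, so reads may be shared among members.

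Promoters of Gbp2 and Ifit3 are shown as examples of the fallen group, with the interferon-stimulated response element, searched as GAAANNGAAA on both strands, in capitals. It reads as its complement in both: once in Gbp2 (chr3:142620413-142620712, plus strand) and at 2 places in Ifit3 (chr19:34583279-34583578, plus strand). The Ifit3 window belongs to a start site inside the gene, whose span begins at chr19:34583119, and was chosen because it holds the element.
Gbp2: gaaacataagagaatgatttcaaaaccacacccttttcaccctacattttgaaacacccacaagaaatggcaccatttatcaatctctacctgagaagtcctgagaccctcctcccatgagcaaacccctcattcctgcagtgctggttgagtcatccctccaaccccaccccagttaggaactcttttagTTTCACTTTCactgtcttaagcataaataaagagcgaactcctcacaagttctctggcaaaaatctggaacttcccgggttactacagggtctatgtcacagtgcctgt
Ifit3: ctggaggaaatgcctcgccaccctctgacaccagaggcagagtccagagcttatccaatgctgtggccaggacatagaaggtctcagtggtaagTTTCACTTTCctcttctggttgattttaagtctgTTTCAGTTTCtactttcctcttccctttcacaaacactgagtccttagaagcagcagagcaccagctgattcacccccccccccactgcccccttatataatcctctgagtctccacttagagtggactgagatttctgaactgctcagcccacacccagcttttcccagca
The element was in 15 of the 22 interferon genes with a window (68.2%) and in 3.99% of all genes with a window. Among genes with a window it was in 6.91% of those that fell in all 4 fits and in 3.21% of those that rose. Of all genes tested with a window, 3.85% held it. The fallen genes include interferon response genes, so their share is not independent of that list.

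Collagen genes and matricellular genes rose more often than they fell, and other matrix lists split. Of 14 fibrillar and associated collagens, 9 rose and none fell, 8 in all 4 fits (median 1.68). Col1a1 (chr11:94936224-94953042), the main chain of type I collagen, measured 127, 178, 242, 202 and 193 CPM and 451 to 2203 CPM (median 873) without overlap (log2 difference 2.55 ± 0.48, adjusted p = 8.9e-05). Its HDM libraries with the steepest GC slopes, replicates 2 and 7, stood at 1687 and 2203 CPM, and its log2 fold change was 2.01 with offsets and 1.41 with the slope. Col3a1 rose from 437 ± 55.5 to 1468 ± 361 CPM (log2 difference 1.75 ± 0.3, adjusted p = 2.76e-05), with 1.9 and 1.65 in those fits. Col24a1, a minor fibrillar chain, rose from 0.398 ± 0.433 to 17 ± 7.28 CPM (5.41, and 6.22 without saline replicate 1). Of 23 elastic fibre and matricellular genes, 12 rose and 1 fell, 9 and 1 in all 4 fits. Tnc, tenascin-C, measured 17.6, 10.7, 16.2, 16.4 and 20.8 CPM and 76.7 to 138 CPM (median 116) (log2 difference 2.81 ± 0.47, adjusted p = 1.84e-05), and Eln, elastin, rose by 2.43 ± 0.61 without a GC term and by 0.92 with the slope. Postn, periostin, which IL-13 is known to induce in airway cells, was the member that fell (221 ± 20.3 to 103 ± 44.4 CPM, log2 difference -1.09 ± 0.3, adjusted p = 0.00483). Basement membrane genes split, with 7 of 21 higher and 5 lower, and Col15a1 rose by 3.14 ± 0.49. Enzymes that process and cross-link collagen rose in 9 of 20 cases without a GC term and in 5 with offsets, where 4 fell. Without saline replicate 3 or without HDM replicate 1, 6 of them rose, and without both 4. Of 17 proteoglycan and hyaluronan genes, 4 rose and 4 fell (median 0.13).

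Of 18 metalloproteinases and inhibitors, 9 rose and 3 fell, 8 and 0 in all 4 fits, and 2 fell without both libraries that stand apart. Timp1, an inhibitor, measured 7.87, 3.53, 4.73, 2.88 and 4.62 CPM and 59.7 to 134 CPM (median 86) (log2 difference 4.23 ± 0.62, adjusted p = 1.97e-06), and Mmp19 29.2, 30.02, 28.5, 31.1 and 24.8 CPM and 242 to 674 CPM (median 339.5) (log2 difference 3.73 ± 0.53, adjusted p = 1.21e-06). In the TGF-beta and BMP family, 6 of 22 rose and 7 fell, 5 and 7 in all 4 fits. Inhba, the activin A chain, measured 1.2, 0.771, 1.45, 1.01 and 1.12 CPM and 39.5 to 101 CPM (median 60.1) (log2 difference 5.78 ± 0.51, adjusted p = 6.55e-11). Tgfb1 rose from 38.6 ± 7.48 to 305 ± 234 CPM (2.98), with 1.16 with the GC slope. Bmp6, a bone morphogenetic protein, fell from 57 ± 12.8 to 8.04 ± 6.16 CPM (log2 difference -2.82 ± 0.43, adjusted p = 3.55e-06), and Bmpr2, the BMP receptor whose loss is known in pulmonary hypertension, fell by 1.77.

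Alveolar fibroblast genes fell in 13 of 17 cases and 1 rose, 12 and 1 in all 4 fits (median -1.82). Itga8 (chr2:12106632-12301985), an integrin of these cells, measured 278, 353, 235, 372 and 320.5 CPM and 29.4 to 80.7 CPM (median 53.6) (log2 difference -2.56 ± 0.43, adjusted p = 1.6e-05). Tcf21, a factor of lung mesenchyme, measured 28.2, 47, 36.6, 47 and 48.4 CPM and 5.71 to 12.8 CPM (median 8.23) (log2 difference -2.28 ± 0.36, adjusted p = 7.35e-06). Slc7a10, an amino acid transporter, measured 19.9, 28.9, 29.5, 21.4 and 35.4 CPM and 0.156 to 3.4 CPM (median 0.61) (log2 difference -4.43 ± 0.93, adjusted p = 0.000318). None of these 3 overlapped. The proteoglycans Ogn and Dcn fell from 439.8 ± 62.5 to 58.4 ± 30.7 CPM and from 277 ± 165 to 72.6 ± 20.1 CPM. Pericyte and mesothelial genes fell in 9 of 16 cases and 1 rose, 8 and 0 in all 4 fits. Acta2, smooth muscle actin, had 0.62 (adjusted p = 0.0616), and passed the test with offsets (0.65, adjusted p = 0.0464), without HDM replicate 6 (0.68, adjusted p = 0.0433) and without saline replicate 3 (0.88, adjusted p = 0.014), the library with the squamous and muscle markers. Smooth muscle and myofibroblast genes rose in 2 of 17 cases and fell in 3, or 5 and 3 without saline replicate 3 and 5 and 2 without both libraries that stand apart.

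Capillary genes fell. Of 20 tested, 11 fell and none rose, 9 in all 4 fits and 15 with offsets. Ednrb (chr14:103814615-103844508), an endothelin receptor of aerocytes, measured 82.1, 103, 99.1, 121 and 84.7 CPM and 5.97 to 20.6 CPM (median 9.15) (log2 difference -3.1 ± 0.52, adjusted p = 1.67e-05). Tek (chr4:94739086-94874976), the angiopoietin receptor TIE2, measured 334, 355, 260.1, 356 and 294 CPM and 27 to 82.5 CPM (median 50.9) (log2 difference -2.65 ± 0.5, adjusted p = 9.2e-05), and was -1.5 with the GC slope. Its ligand Angpt1 measured 81.2, 95.2, 62.4, 95.3 and 73.6 CPM and 6.86 to 21.2 CPM (median 15.7) (log2 difference -2.55 ± 0.47, adjusted p = 6.83e-05). Vegfa, made by type 1 cells, fell by 1.53 from 498 ± 167 to 173 ± 39.9 CPM, and its receptor Kdr by 1.69, which was -0.69 and not called with the slope. Pecam1, which all endothelium carries, had -0.96 (adjusted p = 0.112) although its groups did not overlap. Of 20 genes of arterial, venous and lymphatic endothelium, 3 rose and 7 fell, with a median of 0.0066. The venular genes Selp and Ackr1 rose by 1.61 ± 0.43 and 1.73 ± 0.4, and Ackr1 by 2.89 without saline replicate 3. Growth factors of the EGF, FGF, PDGF and IGF families fell in 10 of 20 cases and rose in 3, 8 and 3 in all 4 fits. Fgf1 fell from 219 ± 41.4 to 49.4 ± 11.6 CPM and Hgf, hepatocyte growth factor, from 29.1 ± 3.45 to 6.83 ± 2.74 CPM, while Igf1 rose from 29.7 ± 10.7 to 135 ± 42.3 CPM (log2 difference 2.18 ± 0.31, adjusted p = 8.46e-07).

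Genes of xenobiotic metabolism fell and more lipid mediator genes rose than fell. Of 18 cytochrome P450 genes, 10 fell and 1 rose, 9 and 1 in all 4 fits. Cyp4b1 (chr4:115624698-115647721), the main pulmonary fatty acid and xenobiotic P450 of its family, measured 462, 577, 514, 587 and 454 CPM and 37.4 to 125 CPM (median 53.2) (log2 difference -3.13 ± 0.38, adjusted p = 4.63e-08), and Cyp1a1, induced by the aryl hydrocarbon receptor, 4.56, 6.17, 5.8, 7.04 and 9.34 CPM and 0.224 to 1.22 CPM (median 0.468) (log2 difference -3.63 ± 0.72, adjusted p = 0.000179). Glutathione and NRF2 genes split, 7 of 24 higher and 6 lower. Slc7a11, the cystine carrier, rose from 3.39 ± 1.5 to 42.6 ± 18.2 CPM (log2 difference 3.65 ± 0.43, adjusted p = 2.84e-08), and Gsta2 fell by 3.68, or by 2.81 without saline replicate 3 and 4.86 without HDM replicate 1. Of 24 prostaglandin and leukotriene genes, 12 rose and 4 fell, 11 and 3 in all 4 fits. Ptgs1, cyclooxygenase-1, measured 89.9, 65.3, 46.3, 67.9 and 50.6 CPM and 154 to 381 CPM (median 253) (log2 difference 2.06 ± 0.35, adjusted p = 1.68e-05), and Ptges, a prostaglandin E synthase, rose by 1.86 ± 0.25, beside the rise of Ptgdr and the fall of Hpgd given above. In the retinoid pathway 4 of 19 rose and 6 fell, or 7 and 5 without saline replicate 3. Rbp4, the retinol carrier of plasma, and its receptor Stra6 rose by 2.9 ± 0.5 and 2.35 ± 0.63.

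In arginine metabolism, 12 of 22 genes rose and 1 fell, 8 and 0 in all 4 fits, and none fell without HDM replicate 1. Nos2, inducible nitric oxide synthase, which shares its substrate with Arg1, measured 3.7, 4.52, 3.97, 5.95 and 5.18 CPM and 12.7 to 62 CPM (median 28) (log2 difference 2.71 ± 0.4, adjusted p = 2.11e-06), and Slc7a2, an arginine carrier, 63.7, 51.2, 24.8, 52.1 and 35 CPM and 114 to 460.2 CPM (median 259.6) (log2 difference 2.66 ± 0.48, adjusted p = 4.67e-05). Glycolysis genes rose in 14 of 20 cases and fell in none, 8 in all 4 fits. Hk3, a hexokinase of myeloid cells, measured 6.38, 7.22, 9.02, 5.21 and 6.97 CPM and 49.96 to 117 CPM (median 74.6) (log2 difference 3.54 ± 0.45, adjusted p = 1.21e-07), and Slc2a1, the glucose carrier GLUT1, rose by 1.8 ± 0.3. Counts of respiratory chain genes changed with the GC term. Of 28 nuclear complex I genes, 8 rose without one and none in all 4 fits. Without saline replicate 3, 12 of them rose, and without HDM replicate 1, 4. Of 13 mitochondrially encoded genes, whose transcripts are low in GC, 1 rose without a GC term, 7 with offsets and none with the GC slope. ND5, a complex I subunit, had 0.67 without a GC term, 1.52 with offsets and 0.7 with the slope, and COX1, of cytochrome oxidase, 0.57, 1.24 and 0.36.

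More genes of neuropeptides, neurotrophins and sensory signalling rose than fell, beside the Npy given above. Of 27 listed, 16 had enough counts to be tested, and those near silent in saline passed that filter through other groups. Of the 16, 9 rose and 3 fell, 6 and 3 in all 4 fits. Calca, the gene of calcitonin gene-related peptide, measured 0.432, 0.551, 0.622, 0.661 and 0.396 CPM and 2.25 to 7.59 CPM (median 4.33) (log2 difference 3.19 ± 0.44, adjusted p = 5.97e-07). Artn, artemin, a trophic factor of sensory neurons, measured 0.336, 0.826, 0.691, 0.739 and 0.826 CPM and 3.3 to 6.04 CPM (median 3.89) (log2 difference 2.73 ± 0.31, adjusted p = 1.78e-08). Nrtn, neurturin, of the same family, had 3 counts in saline and a ratio of 59.05 (95% counting interval 19.9 to 288.9), with its fitted value of 5.62 at 3.42 with offsets, 6.4 without saline replicate 3 and 4.99 without HDM replicate 7. Bdnf, brain-derived neurotrophic factor, fell by 1.55, and its receptor Ntrk2 had -0.45 (adjusted p = 0.339). Stmn2, a neuronal microtubule protein, fell from 34.5 ± 3.79 to 9.14 ± 4.12 CPM (log2 difference -1.92 ± 0.33, adjusted p = 2.49e-05).

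Genes of blood and of fat fell more often than they rose. Platelet genes fell in 5 of 10 cases and rose in none, with Gp1ba, a platelet adhesion receptor, at 2.41 ± 0.613 to 0.411 ± 0.254 CPM. Erythroid genes fell in 4 of 10, 3 in all 4 fits and 2 without HDM replicate 1. The summed CPM of the erythroid list overlapped between groups, at 2170 to 5815 in saline and 193 to 3384 at 19 weeks. It was 3384, 2843 and 1777 CPM in HDM replicates 2, 7 and 1. Hbb-b1, a beta globin chain with close copies, measured 2038, 1999, 4929, 3065 and 3149 CPM and 129 to 778 CPM (median 436) (log2 difference -2.69 ± 0.81, adjusted p = 0.01). No transcript GC was known for Hbb-b1, so the offsets did not adjust it. Adipose genes fell in 9 of 12 cases in all 4 fits, and in 3 without both libraries that stand apart. Adipoq, adiponectin, measured 7.63, 1.71, 166, 5.33 and 6.47 CPM and 0.051 to 6.29 CPM (median 0.976). Its log2 fold change of -4.64 was -1.85 without saline replicate 3, where the call was lost (adjusted p = 0.094), and -5.72 without HDM replicate 7. Lep, leptin, measured 0.816, 0.386, 6.91, 0.389 and 0.859 CPM, and had counts in 1 HDM library, replicate 7, at 0.289 CPM (log2 difference -5.38 ± 0.96, adjusted p = 3.92e-05; -3.79 without saline replicate 3 and -8.14 without HDM replicate 7). Retn, resistin, measured 3.84, 1.38, 83.2, 3.66 and 5.22 CPM and 0.204 to 1.15 CPM (median 0.364) (-5.33, and -2.89 without saline replicate 3). How much fat, blood or neighbouring tissue each lung held was not tested.

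**Figure D5:**
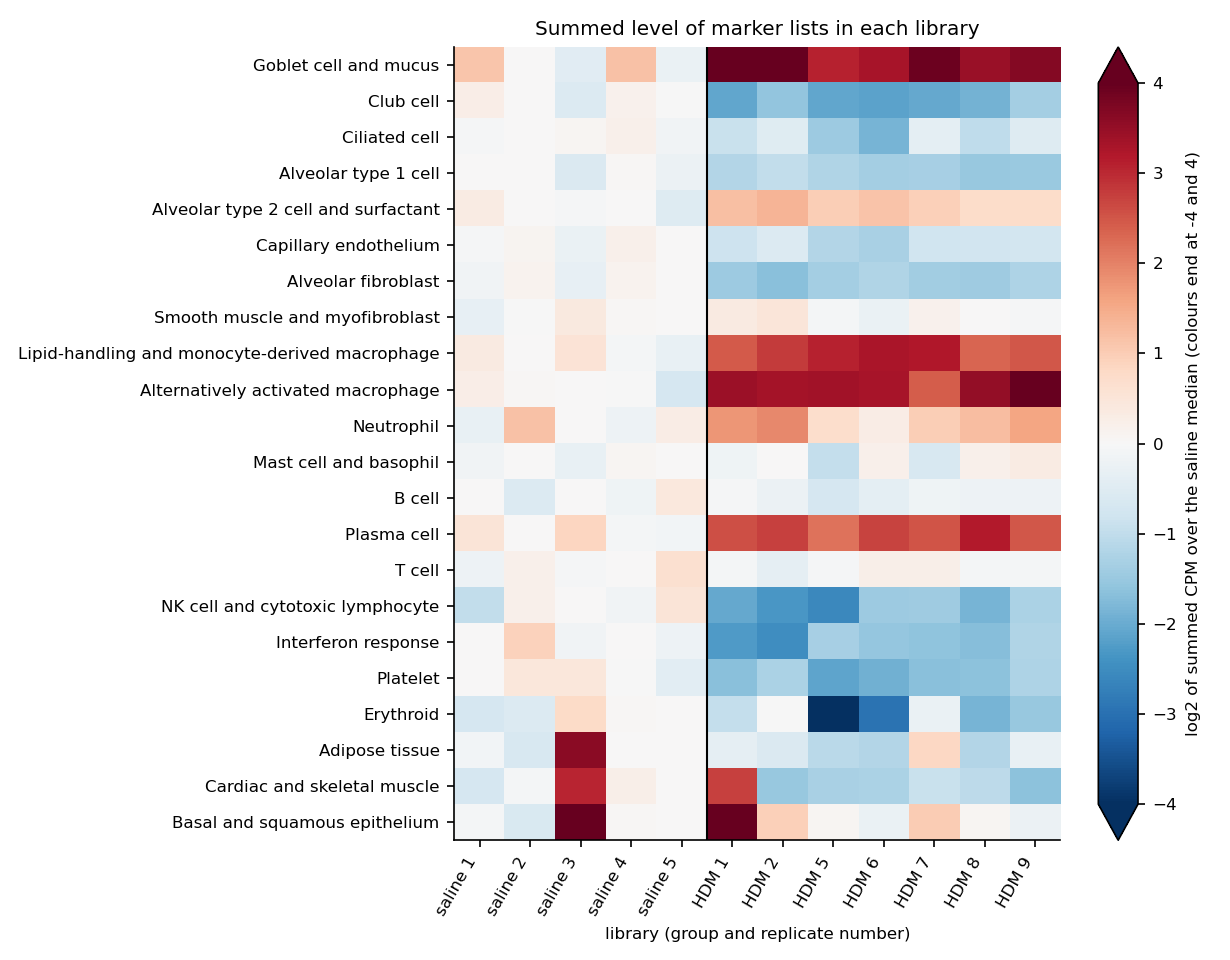
Summed CPM of each marker list (rows) in each of the 12 libraries (columns, by group and replicate), as log2 of its ratio to the saline median (colour, ending at -4 and 4). The squamous, the cardiac and skeletal muscle, and the adipose sums are highest in saline replicate 3. HDM replicate 1 is high in the squamous list and in the cardiac and skeletal muscle list.

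The levels at 19 weeks can be set beside those of the 6 libraries labelled 11 weeks of HDM and the 7 that had 19 weeks with an isotype control antibody. All share the same 5 saline libraries, so the values are given side by side with no comparison. Npy was at 13.8 ± 9.41 CPM at 11 weeks, 34.3 ± 13.9 at 19 weeks and 46.6 ± 33.1 with isotype. Clca1 was at 408 ± 289.8, 115 ± 106 and 148 ± 241 CPM, Retnla at 4634 ± 1139.5, 3001 ± 1032 and 2850.2 ± 1637 CPM, and Gpnmb at 1312 ± 748, 2191 ± 1270.1 and 1987 ± 1557 CPM. Fga was at 5.91 ± 1.74, 27.3 ± 13.5 and 39.9 ± 19.1 CPM, and Scgb1a1 at 4927 ± 1719.7, 3257 ± 1024 and 2886 ± 1292 CPM. For Hpgd the levels were 65.2 ± 37.3, 16 ± 20.6 and 29.6 ± 33.9 CPM, and for Ncr1 0.918 ± 0.374, 0.502 ± 0.48 and 0.578 ± 0.415 CPM. The GC slopes were -0.38 ± 0.201 (SD, n = 6) at 11 weeks and -0.131 ± 0.278 (SD, n = 7) with isotype.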

How the data were processed

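Total RNA of lung was measured by strand-specific mRNA sequencing (500 ng RNA, single reads of 33 cycles), per the labels' protocols. The authors deposited expected counts for 24475 NCBI Gene IDs in 43 libraries, of which 76.79% of nonzero values are whole numbers. The genome build is mm10 per the submitters' processing notes, and the sources used here do not give the aligner, the counter, the annotation or the use of strand in counting. Values were rounded to whole numbers. Symbols and coordinates come from RefSeq on GRCm38.p6 (24375 IDs had a symbol), and transcript GC and length from GENCODE vM21 (15825 of the genes tested).

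Libraries of all 7 groups were fitted together with a mean per group in edgeR 4.0.16 (R 4.3.3), after filterByExpr by group, with TMM factors and a robust quasi-likelihood fit. The contrast was 19 weeks of HDM minus saline. The biological coefficient of variation was 0.4311. Depth of the 12 libraries was 11932579 to 26749395 counts. Offsets were curves on GC and log length per library, and the GC slope used log2 CPM with a prior count of 1. Alternatives were DESeq2 1.42.0, limma 3.58.1 (voom with sample weights), other scalings, filters, sets of libraries and each library left out. The scripts were checked on simulated counts. Genes were named by 4 rules: up to 12 per direction with the largest fold change among genes called in all 4 fits, with at least 1 CPM and no overlap, up to 4 per list with the largest fold change (other members may serve as examples), the 6 per direction that moved most towards 0 with the GC slope as covariate, and the 6 per direction with the largest change in CPM among genes called in all 4 fits. The lists and rules were chosen with earlier results of these data known. Some genes of the lists are not reported by name here. The smallest chi-square per gene between replicates was 13.8, so no library was taken for a repeat deposit.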

Additional observations from a re-analysis of the deposited data

Results flagged for a closer look

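In 398 groups of values (a gene in the 5 saline or the 7 HDM libraries), 1 library stood farther from the others than Dixon's 95% critical value in 32, and chance gives about 1 in 20. Saline replicate 3 accounted for 19. It was highest in its group for the squamous keratins Krt4 (5501 CPM) and Krt13 (5305 CPM), for Acta1 (657 CPM) and Lep (6.91 CPM). It was also highest for genes that rose with HDM, Arg1 (14.6 CPM), Chil4 (25.8 CPM), Ccl11 (8.57 CPM), Ackr1 (3.63 CPM), Cldn4 (9.36 CPM), Lgals3 (147 CPM), Col15a1 (45.1 CPM), Ptges (52.2 CPM), Slc2a1 (28.9 CPM), Prss46 (0.0345 CPM) and Tpsab1 (0.0691 CPM), and for Cpa3 (9.15 CPM) and Gsta2 (11.8 CPM). It was lowest for Nkx2-1 (44.0 CPM) and Hpgd (299 CPM). The Prss46 and Tpsab1 values are 1 and 2 counts in this library with none in the other saline libraries, where any count would have been flagged. Whether tissue other than lung in this library accounts for these values was not tested.

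Saline replicate 1 was lowest of its group for Ccl5 (13.3 CPM), Tbx21 (2.74 CPM) and Artn (0.336 CPM) and highest for Cxcl5 (1.58 CPM). Among the HDM libraries, replicate 1 was highest for Krt4 (1874 CPM), Krt13 (1685 CPM) and Acta1 (893 CPM), and replicate 9 for Fabp1 (0.297 CPM) and Cyp4b1 (125 CPM). Replicate 7 was highest for Lep (0.289 CPM) and lowest for Retnla (1096 CPM) and Tnc (76.7 CPM), and replicate 6 was lowest for Muc5ac (2.34 CPM).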

How the results depend on the processing

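Against 3072 genes higher and 2490 lower, limma voom with sample weights called 5340 and 4983, the 2 groups fitted alone 4233 and 3965, and the fit without the 10 steepest libraries 3768 and 3801. DESeq2 called 3304 and 2955, and the other scalings and filters 2672 to 2890 and 2346 to 2714. Leaving out each library in turn gave 2302 to 3203 higher and 1926 to 2599 lower, and the difference in GC slope stayed between 0.687 and 0.9. Of 198 named genes, 177 were called, and 159 of these kept their direction and call in every setting that tested them. With the GC slope as covariate, the called genes Lrfn1 (-0.16) and Nebl (0.026) changed sign, as did Krt8 (-0.43), Foxj1 (-0.95), Prdm1 (0.67), Pecam1 (0.022) and Cpa3 (-0.036), which were not called without it. Over the libraries left out in turn, Krt4 ran from -2.41 to 10.39, Krt13 from -2.52 to 10.16 and Acta1 from -7.94 to 9.04, with the highest value without saline replicate 3, where HDM replicate 1 alone held them. The cause of the other changes was not tested. Groups share replicate numbers 1, 2 and 5, and the deviations of same-numbered libraries correlated at -0.408, -0.014 and 0.082, with 0 of 3 saline libraries closest to their own number, so the numbers were not taken to pair mice. A replicate block called 2136 higher and 1707 lower, and with GC and length offsets 2294 and 2467. Counts of 3 or fewer in saline limit the folds of the near-silent genes.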

Other observations

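Among 21 immediate early genes, the transcription factors and phosphatases that cells induce within minutes of a stimulus, 10 rose and none fell, 5 in all 4 fits. Atf3, a stress-induced factor, measured 7.92, 6.22, 7.08, 5.76 and 5.48 CPM in saline and 36.9 to 80.8 CPM (median 45.6) at 19 weeks (log2 difference 2.94 ± 0.38, adjusted p = 1.58e-07). Egr2, a zinc finger factor of macrophages and T cells, went from 4.83 ± 1.62 to 30.2 ± 5.68 CPM (log2 difference 2.65 ± 0.4, adjusted p = 3.56e-06). Junb went from 17.2 ± 3.78 to 149 ± 105 CPM (log2 difference 3.11 ± 0.7, adjusted p = 0.000772), and its log2 fold change was 1.37 with the GC slope. No HDM library overlapped a saline one for these 3.

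Of 18 clock genes, 4 rose and 3 fell, 3 and 1 in all 4 fits, and 2 fell without saline replicate 3 and 1 without HDM replicate 1. Bhlhe40, a repressor that clock and immune cells share, rose from 47.5 ± 6.66 to 237 ± 41.3 CPM (log2 difference 2.32 ± 0.37, adjusted p = 8.25e-06), and Clock fell from 97.7 ± 12.7 to 49.2 ± 14.5 CPM (log2 difference -0.99 ± 0.28, adjusted p = 0.00533). The hour of collection is not given in the sources used here. Of 25 cell cycle genes, 6 rose and none fell, 3 in all 4 fits. The counts of risen cell cycle genes lie near the shares over all genes tested, 19.2% and 10.1% in all 4 fits. The clock counts and those of the next list lie near the overall 19.2% higher and 15.6% lower as well. In the list of hypoxia and heat shock, 5 of 18 rose and 4 fell, and Hspa1a, an inducible heat shock protein, rose from 2.95 ± 1.18 to 22.9 ± 10.6 CPM (log2 difference 2.95 ± 0.45, adjusted p = 3.11e-06). A single Gene ID without a symbol in the tables used held 1.29% to 3.03% of the counts of saline libraries and 4.71% to 16.8% of HDM libraries. That ID held 11.7% to 16.8% in HDM replicates 1, 2 and 7 and 4.71% to 5.88% in the others. Without it, 2963 genes rose and 2552 fell.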
